A study of Mus musculus with 18 samples.

Results

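Proteasome genes were examined in RNA-Seq counts of colon crypt epithelial cells from mice with and without gut microbes. The 45 members were all symbols of the gene table that begin with Psma, Psmb, Psmc, Psmd or Psme and a digit, after symbols holding -ps or ip1 had been dropped, out of 24047 genes in all. The 18 libraries formed 6 groups of 3, all from C57BL/6 mice: GF-WT, COLONIZED-WT, CONV-WT, and the same states in libraries labelled Ern2-/-. GF animals carried no microbes, CONV animals had grown up with a normal gut microbiota, and COLONIZED animals were taken from germ-free isolators, given cecal microbes of CONV-WT donors and examined at 14 days. The product of Ern2, ERN2 or IRE1β, senses ER stress in mucosal epithelia, and the Ern2-/- label stands for a germline knockout. The sources used here do not give the ages of these mice.

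The 26S proteasome degrades proteins that carry ubiquitin chains. Its 20S core is a barrel of α and β rings, with the proteolytic sites on β subunits inside, and its 19S cap binds ubiquitin, removes it, and unfolds the substrate with a ring of ATPases. Interferon-γ induces replacement β subunits and the PA28 activator, which alter the peptides that are cut for display to T cells, and secretory cells use the proteasome to clear misfolded proteins that are returned from the ER.

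By role, the members comprised the α ring genes Psma1 to Psma7 with their testis form Psma8 (8 genes), the β ring genes Psmb1 to Psmb7 (7), the inducible catalytic subunit genes Psmb8, Psmb9 and Psmb10 (3), and the thymic subunit gene Psmb11 (1). The cap was represented by the ATPases Psmc1 to Psmc6 (6) and by the non-ATPases Psmd1, Psmd2, Psmd3, Psmd4, Psmd6, Psmd7, Psmd8, Psmd11, Psmd12, Psmd13 and Psmd14 (11). Psmd5, Psmd9 and Psmd10 (3) encode chaperones that help to assemble the cap. Psme1, Psme2, Psme3 and Psme4 encode activators that can dock on the core in place of the cap, and Psme2b, a near copy of Psme2, was counted with them (5 genes). Psmc3ip (1) was taken by the rule on symbols, although it encodes a partner of recombination proteins and no proteasome subunit. It is described apart, but numbers of members tested and called include it. The 31 genes of the constitutive core and cap leave out Psma8, Psmb8 to Psmb11, the chaperones, the activators and Psmc3ip.

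Library totals ran from 5865619 to 23154481 counts, and the 3 shallowest libraries were CONV-Ern2-/- replicate 3, CONV-Ern2-/- replicate 2 and CONV-WT replicate 3, the last at 8198204. Normalized Ern2 counts, the check of the genotype label, were 1909 to 3100.3 in the 9 WT libraries. Replicates 1, 2 and 3 had 2877, 386 and 3336 (GF-Ern2-/-), 2567, 1325 and 1885 (COLONIZED-Ern2-/-), and 998, 1622 and 1487 (CONV-Ern2-/-). In GF-Ern2-/- the counts of replicates 1 and 3, and in COLONIZED-Ern2-/- that of replicate 1, were as high as in WT and went against their label, and whether the counted part of the gene is deleted was not stated. Y-linked transcripts marked 0 of 3 libraries in GF-WT, 2 in COLONIZED-WT, 1 in CONV-WT, 2 in GF-Ern2-/-, 2 in COLONIZED-Ern2-/- and 3 in CONV-Ern2-/-, so that sex was not balanced over the groups. All 10 epithelial markers were detected in every library. The 14 immune markers in the table that are reported summed to 116 to 429.6 normalized counts, and the epithelial markers to 184796 to 604686. These lists hold different genes of unlike abundance, so the sums do not give shares of cells. The B cell and plasma cell markers Cd79a and Mzb1 reached at most 3.07.

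To show the DNA just before the start of members that are described below, the 250 bases upstream of 4 genes are given 5′ to 3′ on the gene's strand, from RefSeq on GRCm38.p6. They were chosen from members whose window holds no annotated exon. Psmd9 and Psmd4 hold the motifs shown in capitals, and Psmd14 and Psme3, called in comparisons of WT groups, hold neither of them. Psmd9 lies at chr5:123227940-123228189 (plus strand), Psmd4 at chr3:95042615-95042864 (minus strand), Psmd14 at chr2:61711444-61711693 (plus strand) and Psme3 at chr11:101315963-101316212 (plus strand). Capitals mark matches to TGACNNNGC (the antioxidant response element, which NRF proteins bind) or to GAAA, any 2 bases and GAAA (the interferon-stimulated response element), on either strand. CCAAT, which Psmd4, Psmd14 and Psme3 also hold, is not capitalized.
Psmd9: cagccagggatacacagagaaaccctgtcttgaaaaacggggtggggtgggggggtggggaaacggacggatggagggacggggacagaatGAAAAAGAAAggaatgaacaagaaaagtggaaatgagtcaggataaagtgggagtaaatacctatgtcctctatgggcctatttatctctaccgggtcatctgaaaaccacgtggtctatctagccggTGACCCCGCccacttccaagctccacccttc
Psmd4: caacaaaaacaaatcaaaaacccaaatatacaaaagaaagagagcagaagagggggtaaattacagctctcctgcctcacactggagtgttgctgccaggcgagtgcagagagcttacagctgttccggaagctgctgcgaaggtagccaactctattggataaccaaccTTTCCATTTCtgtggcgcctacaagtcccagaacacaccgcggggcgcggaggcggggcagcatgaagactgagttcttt
Psmd14: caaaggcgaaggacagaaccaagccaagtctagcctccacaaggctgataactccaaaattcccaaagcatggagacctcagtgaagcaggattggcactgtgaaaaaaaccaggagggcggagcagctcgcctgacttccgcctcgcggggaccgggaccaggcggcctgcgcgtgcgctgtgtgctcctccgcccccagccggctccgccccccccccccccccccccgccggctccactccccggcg
Psme3: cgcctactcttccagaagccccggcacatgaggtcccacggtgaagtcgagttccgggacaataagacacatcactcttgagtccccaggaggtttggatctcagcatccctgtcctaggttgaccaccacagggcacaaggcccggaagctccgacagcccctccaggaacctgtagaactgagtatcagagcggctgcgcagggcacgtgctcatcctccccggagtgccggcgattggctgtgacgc

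Upstream windows were matched for 38 of the 45 members by symbol. TGACNNNGC was found in 5 of them (13.2%: Psmb5, Psmb6, Psmc6, Psmd12 and Psmd9), against 10.2% of all 32851 windows of the same length. The interferon-stimulated response element was found in Psmb3, Psmd4 and Psmd9 (7.89% against 2.98%), and CCAAT, the CCAAT box, in 15 members (39.5% against 33.8%). TTCNNNGAA, the interferon-γ activated site, was found in 1 member (2.63% against 7.02%), which was Psmb8. That match reads TTCCCAGAA at chr17:34198098-34198106 on the plus strand, 97 bases before the start of Psmb8 and inside an exon of another annotated transcript. A match describes letters in the window and not a bound site.

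Most members were expressed at substantial levels in all 18 libraries. Normalized counts divided by exon length (per kb, from protein-coding transcripts of the GENCODE annotation of GRCm38, mean over 18 libraries) were highest for Psmb4 (2647), Psmb6 (2249) and the PA28 genes Psme2 (2197) and Psme1 (2180.5), followed by Psmb2 (2088) and Psma7 (2015). On the same per-kb scale Psmb10 stood at 1437, beside 1367 for Psmb7, the constitutive subunit that it replaces. Psmb8 stood at 210.4 per kb and its counterpart Psmb5 at 552, whereas Psmb9 stood at 189 and its counterpart Psmb6 at 2249. Values per kb depend on the annotated length (1628 bases for Psmb8, 899 for Psmb5), and which transcripts these cells use was not determined. Psmb1, with normalized counts of 2418 to 4653, stood at 881 per kb for a length of 3427 bases. The lowest levels among detected genes were those of Psme2b (44.9 per kb) and Psmc3ip (26.3 per kb). Psma8 had 1 count in 1 library and Psmb11 had 0 in all of them, as befits genes known from testis and thymus. These 2 genes had no adjusted p in any pairwise comparison, which left 43 members tested in each.

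The constitutive genes varied little, and their counts were correlated over the libraries. The SD of log2 normalized counts over 18 libraries was 0.151 to 0.356 in the 31 core and cap genes, with a median of 0.215, against a median of 0.325 over 10015 genes with a mean of 100 or more. Between pairs of these 31 genes the median Pearson correlation over 18 libraries was 0.66, and it was 0.66 after each gene had been centred on its group means. These libraries share their depth and size factors across all pairs, and the median for other sets of genes is not given here. GF-Ern2-/- replicate 2, the highest library for 18 of the 31 genes, was kept in both values. Of the 43 members that were tested, Psmb7 followed the sum of the other core and cap genes most closely (r = 0.95 over 18 libraries), then Psma6 (0.94) and Psmb6 (0.92), and Psme4 (0.08), Psmb9 (-0.05) and Psmb8 (-0.12) least.

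The sum of the 31 core and cap genes had its lowest group mean in GF-WT. Summed normalized counts of replicates 1, 2 and 3 were 46534, 51575 and 44845 (GF-WT), 55883, 57843 and 58655 (COLONIZED-WT), and 60418, 61893 and 65770.0 (CONV-WT). The 3 WT groups did not overlap, with means of 47651 ± 3501 for GF-WT, 57460.2 ± 1425 for COLONIZED-WT and 62694 ± 2764 for CONV-WT (SD, n = 3 each). With the Ern2-/- label the sums were 51549, 70602 and 48859 (GF), 58891, 53667 and 58049 (COLONIZED), and 54168, 62715 and 67383 (CONV). These 3 groups overlapped, and GF-Ern2-/- replicate 2 had the highest sum of all 18 libraries, while GF-Ern2-/- replicates 1 and 3 lay within the GF-WT range. In bulk RNA, more transcript per cell and more cells of a type that is rich in it cannot be told apart.

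**Figure D1:**
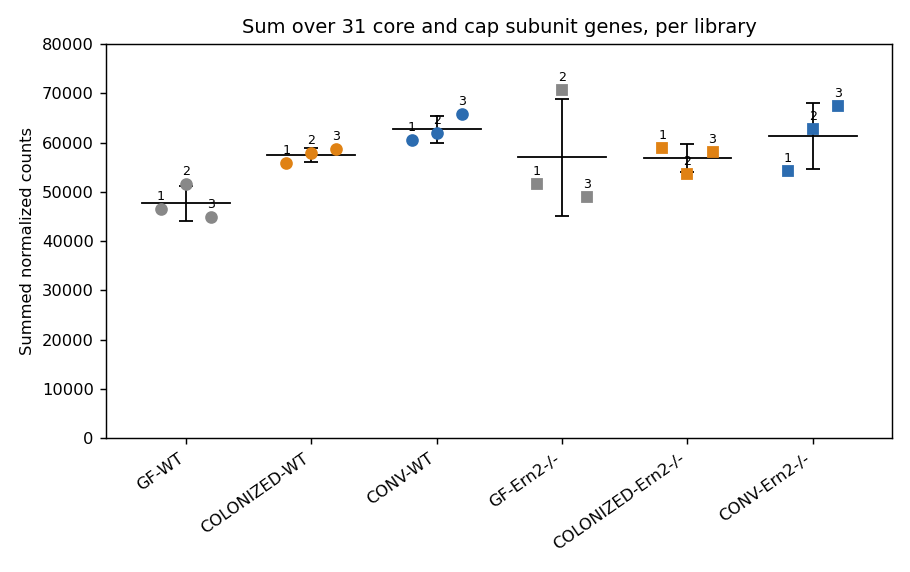
Sum of normalized counts (y axis, from 0) over the 31 constitutive core and cap genes in each library, by group (x axis), with numbered points for replicates and black lines for the mean ± SD of 3 libraries. The GF-WT libraries sit between 44845 and 51575, below every COLONIZED-WT and CONV-WT library, and GF-Ern2-/- replicate 2 stands at 70602.

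The first comparison asked which members differ between mice raised with a microbiota and germ-free mice of the WT genotype. In CONV-WT against GF-WT, DESeq2 called 6 of the 43 tested members at Padj under 0.01 (14.0%), all higher with microbes, where 11.0% of all genes tested were called (5.68% called higher). The 6 were Psmd7, Psmb3, Psmd14, Psmc4, Psmc3ip and Psmb2, and the share is close to the background. The direction was more uniform than the calls: 41 of 43 members had a log2 fold change above 0 (49.9% of all genes), with a median of 0.35, or 1.27-fold, against a median of 0.00 for all genes. An unadjusted p under 0.05 was given to 27 members, all higher, and to 30.4% of all genes. In 31 of 43 members (72.1%) every CONV-WT library exceeded every GF-WT library, which held for 18.1% of all genes. The 2 members below 0 were the inducible Psmb8 (-0.22) and Psmb9 (-0.14), neither of which passed the test.

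By role, the median log2 fold change in CONV-WT against GF-WT was 0.29 for 7 α ring genes (0 called), 0.42 for 7 β ring genes (2 called), 0.35 for 6 ATPases (1 called) and 0.33 for 11 non-ATPases (2 called). Each of these 31 genes had a value above 0, from 0.07 (Psma1) to 0.79 (Psmd7). The 5 activator genes had a median of 0.39 and the 3 chaperones a median of 0.11, with 0 called in either role. Psmd9, the chaperone gene whose upstream sequence is shown above, was counted at 375, 417.5 and 386 (GF-WT), 428.5, 439 and 432 (COLONIZED-WT), and 437, 380.3 and 466 (CONV-WT), and its log2 fold changes of 0.11 in CONV-WT (DESeq2 Padj = 0.722) and 0.15 in COLONIZED-WT (Padj = 0.427) did not pass the test. The 3 inducible genes had a median of -0.14, and Psmb8 and Psmb9 lay above 0 in 4 of 14 alternative fits each.

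The cap gene Psmd7, a structural partner of the deubiquitinase in the lid, had the smallest adjusted p. Its normalized counts were 1278, 1309 and 1161 (GF-WT), 1902, 1706 and 1528 (COLONIZED-WT), and 1939, 2037 and 2575 (CONV-WT). All 6 WT libraries with microbes exceeded all 3 without. The log2 fold change was 0.79 (SE 0.19, DESeq2 Padj = 0.000398), or 1.73-fold, in CONV-WT against GF-WT. In libraries labelled Ern2-/-, Psmd7 counts were 1344, 1597 and 1515 (GF), 1574, 1677 and 1763 (COLONIZED), and 1425, 2124 and 2629.5 (CONV), and the groups overlapped.

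Psmb3, a structural subunit of the β ring, was counted at 973, 1112 and 869 (GF-WT), 1395, 1359.6 and 1295 (COLONIZED-WT), and 1412, 1621 and 1642 (CONV-WT). The GF-WT libraries were the lowest 3, with a log2 fold change of 0.65 (SE 0.18, DESeq2 Padj = 0.00264) in CONV-WT against GF-WT. Psmb3 counts labelled Ern2-/- were 1089, 1485 and 1067 (GF), 1190.5, 902 and 1188 (COLONIZED), and 1202, 1682 and 1956 (CONV). The GF range there held all COLONIZED libraries except replicate 2, which was lower than any of them. Psmb2, another structural β subunit, was counted at 1376, 1536 and 1256 (GF-WT), 1838, 1852 and 2046 (COLONIZED-WT), and 1907, 1961 and 2032 (CONV-WT). It rose 1.41-fold in CONV-WT against GF-WT (log2 fold change 0.49, SE 0.15, DESeq2 Padj = 0.00929). Its counts labelled Ern2-/- were 1534, 2165 and 1549.8 (GF), 1916, 1979 and 2019 (COLONIZED), and 1777, 1731 and 1810.0 (CONV), so that only GF replicate 2 exceeded the libraries with microbes.

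Psmd14 encodes the deubiquitinase of the cap, which cuts ubiquitin chains from the substrate. Its counts were 864, 1012 and 877 (GF-WT), 1066, 1155 and 1296 (COLONIZED-WT), and 1403, 1431 and 1260.0 (CONV-WT). The log2 fold change in CONV-WT against GF-WT was 0.56 (SE 0.15, DESeq2 Padj = 0.00296). Psmd14 counts labelled Ern2-/- were 1018, 1713 and 938 (GF), 1425, 1469 and 1414 (COLONIZED), and 1059, 1244 and 1266 (CONV). Replicate 2 of GF-Ern2-/- was again the highest of the 18.

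Psmc4, an ATPase of the unfolding ring, was called in both WT comparisons with microbes. Its counts were 1259.9, 1412 and 1219 (GF-WT), 1885, 1794 and 1878 (COLONIZED-WT), and 1983, 1825 and 1812 (CONV-WT). Every WT library with microbes exceeded every GF-WT library, by 1.44-fold between the groups in each comparison (log2 fold change 0.52, SE 0.14, DESeq2 Padj = 0.00328 in CONV-WT; 0.52, SE 0.12, Padj = 0.000193 in COLONIZED-WT). Counts labelled Ern2-/- were 1388, 1869 and 1421 (GF), 1898, 1719.8 and 1826 (COLONIZED), and 1698, 1635 and 1827 (CONV). GF replicate 2 lay within the range of the libraries with microbes, and the other 2 GF replicates lay below all of them.

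Colonization of germ-free mice was compared next. In COLONIZED-WT against GF-WT, DESeq2 called 8 of 43 members (18.6%), all higher, where 18.3% of all genes tested were called (9.35% called higher). Of the 43, 42 had a log2 fold change above 0 (48.9% of all genes), with a median of 0.27, or 1.21-fold, against -0.01 for all genes, and 25 (58.1%) had groups that did not overlap, against 23.0% of all genes. An unadjusted p under 0.05 was given to 20 members, all higher, and to 39.2% of all genes. The cap chaperone gene Psmd10 was the member below 0 (-0.07, DESeq2 Padj = 0.737). The called members were Psmc3ip, Psmd3, Psmc4, Psmb2, Psmd7, Psma4, Psmb3 and Psme3. Both comparisons use the same 3 GF-WT libraries, so a gene called in both is not called independently.

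By role, the medians in COLONIZED-WT against GF-WT were 0.23 for α ring genes (1 of 7 called), 0.41 for β ring genes (2 of 7), 0.26 for ATPases (1 of 6) and 0.27 for non-ATPases (2 of 11), and all 31 values were above 0, from 0.02 (Psma1) to 0.52 (Psmc4). Activators had a median of 0.40 (1 of 5 called), chaperones 0.13 (0 of 3) and inducible genes 0.48 (0 of 3). Over 14 alternative fits the inducible genes ran from 0.06 to 1.74 (Psmb8), 0.02 to 1.11 (Psmb9) and 0.02 to 0.53 (Psmb10). COLONIZED-WT replicate 2 alone had a high Psmb8 count (904, against 289 and 278 in the other COLONIZED-WT libraries).

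**Figure D2:**
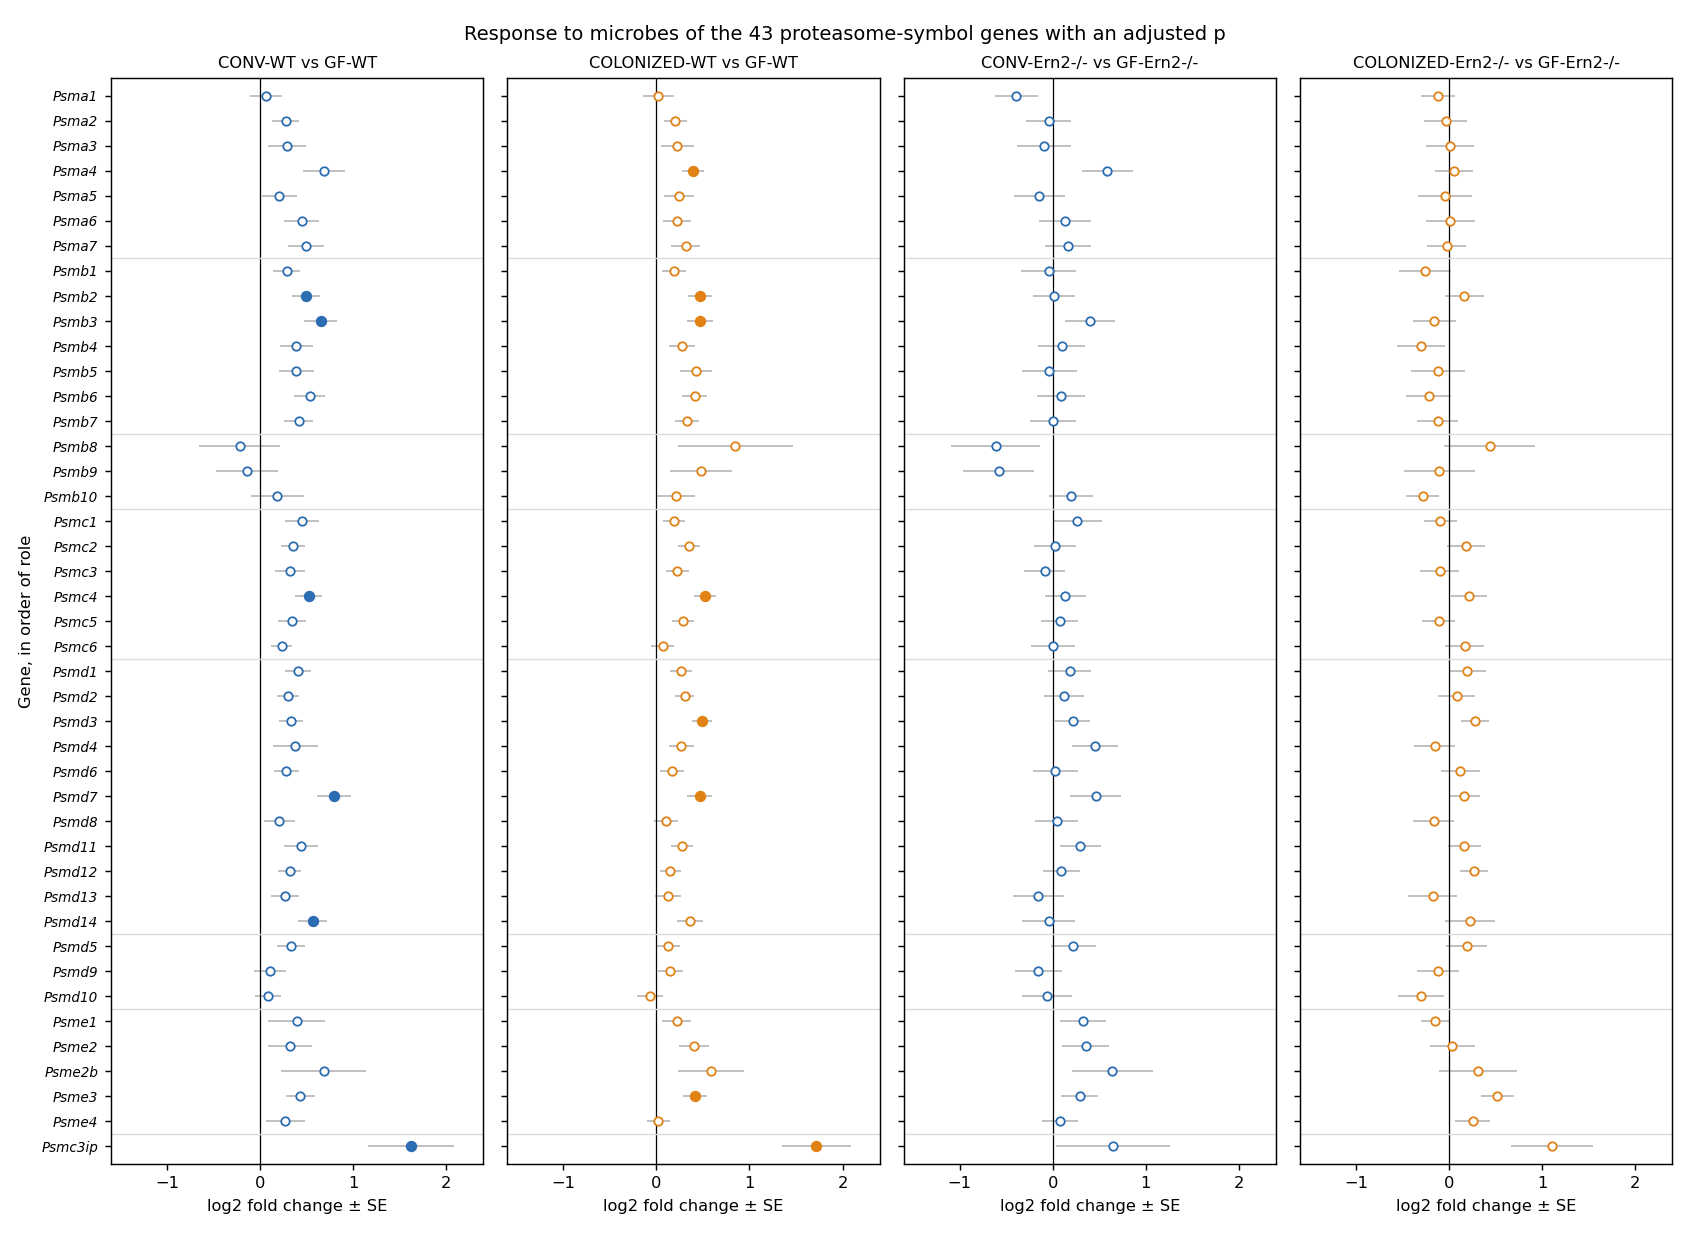
Log2 fold change ± SE (x axis) of 43 members, in order of role (y axis), with microbes against germ free in WT libraries (2 left panels) and in libraries labelled Ern2-/- (2 right panels), with filled points at DESeq2 Padj under 0.01. In the WT panels 41 and 42 members lie to the right of 0, and in the panels labelled Ern2-/- 30 and 22 do, with no filled point.

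Psmd3, a structural non-ATPase of the lid, separated libraries with microbes from germ-free ones with either genotype label. Its counts were 2043, 2169 and 2082 (GF-WT), 3029, 2834 and 2953 (COLONIZED-WT), and 2823, 2533 and 2611 (CONV-WT). The log2 fold change in COLONIZED-WT against GF-WT was 0.50 (SE 0.11, DESeq2 Padj = 6.5e-05), or 1.41-fold. In CONV-WT against GF-WT it was 0.33 (SE 0.13, DESeq2 Padj = 0.0466), without overlap but short of the threshold. Psmd3 counts labelled Ern2-/- were 2168, 2379.5 and 2208 (GF), 2889, 2627 and 2719 (COLONIZED), and 2589.8, 2413 and 2867 (CONV). Here too all libraries with microbes exceeded all 3 GF libraries, with log2 fold changes of 0.28 (SE 0.15, DESeq2 Padj = 0.229) and 0.21 (SE 0.19, Padj = 0.593) in COLONIZED and CONV.

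Psma4, an α ring subunit, was counted at 1248, 1400.4 and 1383 (GF-WT), 1788, 1695 and 1786 (COLONIZED-WT), and 1707, 2161 and 2681 (CONV-WT). It rose 1.31-fold in COLONIZED-WT (log2 fold change 0.40, SE 0.12, DESeq2 Padj = 0.00545), whereas the larger value in CONV-WT, 0.69, came with a wider spread (SE 0.23, Padj = 0.0176). Psma4 counts labelled Ern2-/- were 1449.7, 2059.6 and 1602 (GF), 1672, 1782 and 1876 (COLONIZED), and 1831, 2773 and 3118 (CONV). With both genotype labels the highest counts were those of the shallow CONV libraries.

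Psme3 encodes PA28γ, the nuclear activator of the core. Its counts were 1748, 1515 and 1754 (GF-WT), 2330.25, 2065 and 2234 (COLONIZED-WT), and 2487, 2169.9 and 2166 (CONV-WT). Under the Ern2-/- label they were 1551, 1907 and 1914 (GF), 2437, 2839 and 2453 (COLONIZED), and 2183, 2242 and 2169 (CONV). With either label, every library with microbes exceeded every germ-free one. The log2 fold changes were 0.41 (SE 0.13, DESeq2 Padj = 0.00765) in COLONIZED-WT and 0.43 (SE 0.16, Padj = 0.0324) in CONV-WT. With the Ern2-/- label they were 0.52 (SE 0.18, DESeq2 Padj = 0.0348) in COLONIZED and 0.29 (SE 0.20, Padj = 0.443) in CONV, neither of which passed the threshold.

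Psmc3ip, which encodes no subunit, had the largest fold change of the 43 members, at low counts. Its normalized counts were 19.2, 16.8 and 11.8 (GF-WT), 59.2, 43.3 and 53.2 (COLONIZED-WT), and 54.7, 63.2 and 27.4 (CONV-WT). Every WT library with microbes again exceeded every GF-WT library. The rise was 3.29-fold in COLONIZED-WT (log2 fold change 1.72, SE 0.37, DESeq2 Padj = 5.92e-05) and 3.07-fold in CONV-WT (1.62, SE 0.46, Padj = 0.00496). Counts labelled Ern2-/- were 14.2, 17.05 and 25.0 (GF), 42.0, 35.1 and 43.1 (COLONIZED), and 42.8, 17.8 and 24.8 (CONV), and the COLONIZED value was 1.11 (SE 0.44, DESeq2 Padj = 0.0759). Its exons overlap those of Mlx on the opposite strand by 385 bases, and since the strand setting of the counting was not stated, reads of the pair may be mixed.

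**Figure D3:**
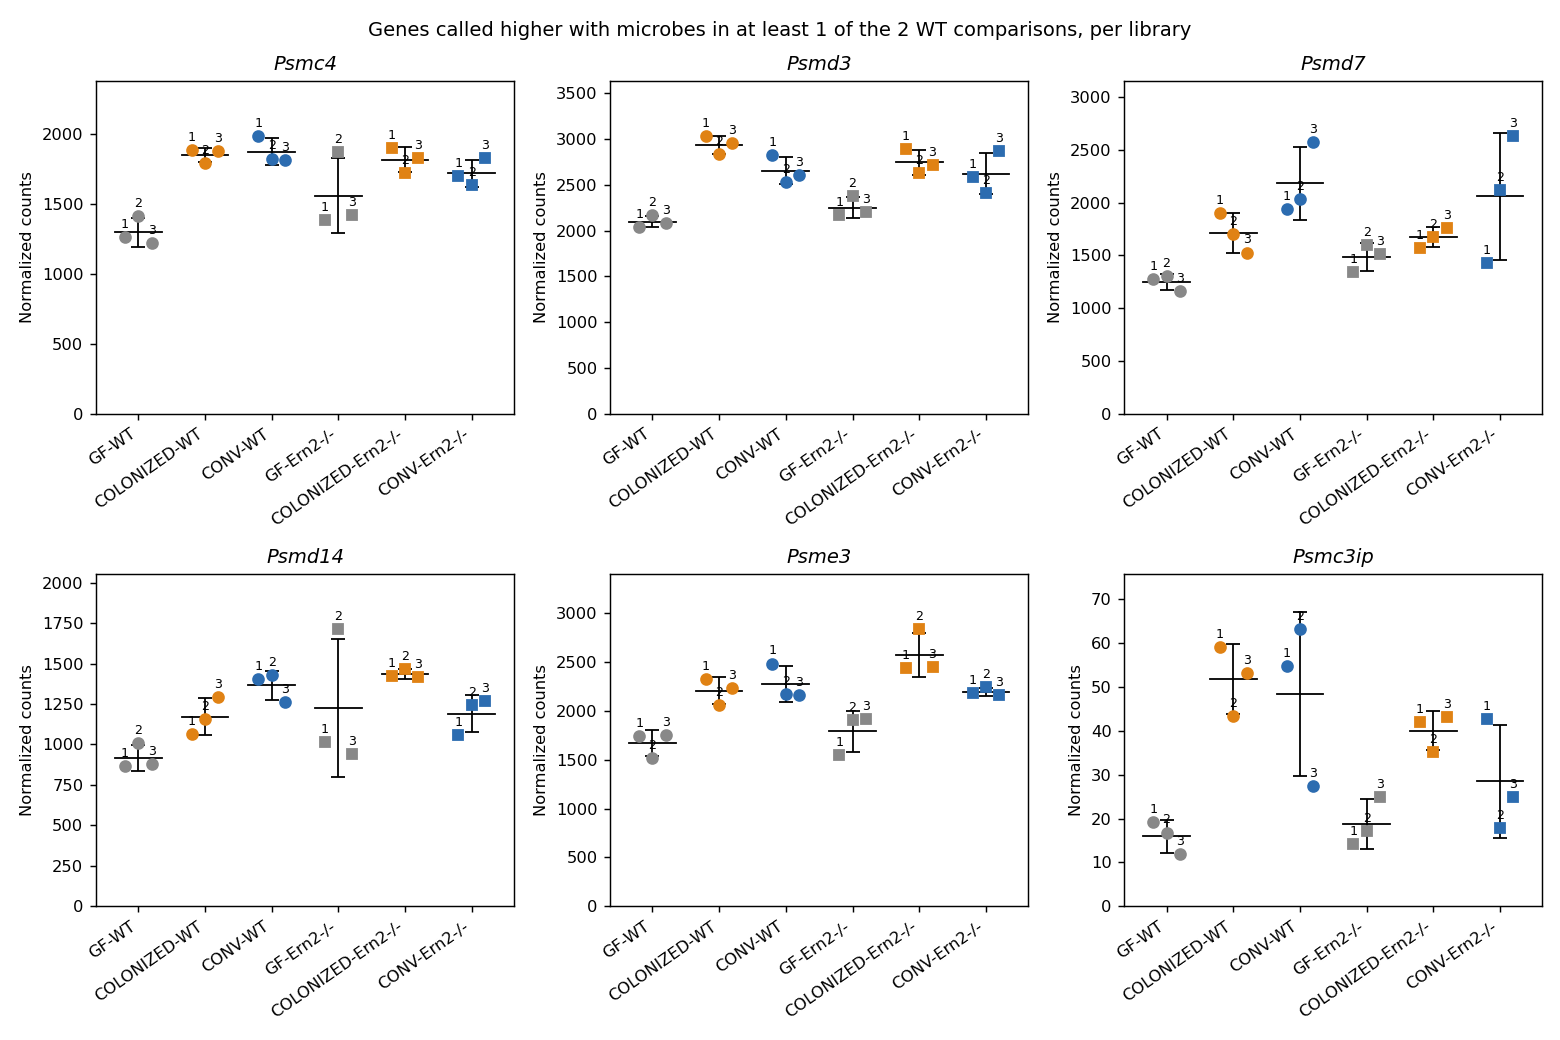
Normalized counts (y axis, from 0) of Psmc4, Psmd3, Psmd7, Psmd14, Psme3 and Psmc3ip in each library, by group (x axis), with numbered points for replicates and lines for the mean ± SD of 3 libraries. In all 6 panels the 3 GF-WT libraries lie below the COLONIZED-WT and CONV-WT libraries, and GF-Ern2-/- replicate 2 is highest for Psmd14 (1713).

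How far single libraries carried these calls was examined by leaving out each in turn. In COLONIZED-WT against GF-WT, Psmc4, Psmd3 and Psmc3ip were called in 6 of 6 such fits (highest DESeq2 Padj 0.00347, 0.00118 and 0.00373), with 3 members called without COLONIZED-WT replicate 1 (9.22% of all genes) or 2 (14.6%), the fewest, and 7 without GF-WT replicate 2 (13.5%). Of the other called members, Psmb2 was called in 3 of 6, Psmd7 and Psme3 in 2 each, and Psma4 and Psmb3 in 1 each. In CONV-WT against GF-WT the 6 calls became 0 without any 1 of the GF-WT libraries (5.09% to 5.87% of all genes) or without CONV-WT replicate 2 (4.31%), 2 without CONV-WT replicate 1 (6.77%) and 9 without CONV-WT replicate 3 (20.8%), so that the background moved with the members. A fit with the replicate number as a block also ended the 6 calls, where 9.40% of all genes were still called. The median over 43 members moved less, from 0.33 to 0.39 in CONV-WT and from 0.23 to 0.34 in COLONIZED-WT. The edgeR quasi-likelihood test called 2 members in COLONIZED-WT (Psmc4 and Psmc3ip), where it called 4.94% of all genes, and 0 in CONV-WT, where it called 0.175% and gave 22 members an unadjusted p under 0.05 (DESeq2 27). Its smallest adjusted p in CONV-WT was 0.0351, for Psmd7.

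No GF-WT library had the Y-linked pattern, so the comparisons were also made within libraries that lack it. In CONV-WT against GF-WT this is the fit without CONV-WT replicate 1 that is given above, and not a further check. With 2 CONV-WT libraries, 2 members were called (Psma4 and Psmd7), where 6.77% of all genes were called, with a median of 0.38, and all 43 values were above 0. In COLONIZED-WT against GF-WT, with COLONIZED-WT replicate 2 alone assumed to vary like the others, 1 was called (Psmb8), where 1.15% of all genes were called, with a median of 0.31, and 41 were above 0. That library has the highest Psmb8 count of all 18 (904). The 31-gene sums of these 3 libraries, 57843, 61893 and 65770.0, exceeded the highest GF-WT sum of 51575. Among markers of other cells, the immune sum was 116 to 211 in GF-WT, 190.4 to 305 in COLONIZED-WT and 199 to 429.6 in CONV-WT, with 0 to 3 of 14 markers at 0 in a library. The mesenchymal sum of 11 markers was 364 to 439, 233 to 318 and 241 to 484 in the same order, with 0 to 5 at 0, and the endothelial sum of 6 markers was 108 to 169.8, 93.7 to 125 and 93.1 to 153, with 1 to 3 at 0. Their part in the higher proteasome counts was not tested.

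CONV-WT and COLONIZED-WT were then set against each other. DESeq2 called 0 of 43 members, where it called 0.119% of all genes and edgeR 0, and 0 had an unadjusted p under 0.05 by DESeq2 or edgeR, against 8.98% of all genes by DESeq2. The median log2 fold change was 0.12, with 34 of 43 above 0 (51.8% of all genes) and the smallest adjusted p at 0.602 (Psma7, DESeq2). Of the 31 core and cap genes, 28 lay above 0. In 12 members (27.9%) every CONV-WT library exceeded every COLONIZED-WT library, which held for 8.52% of all genes, and in 1, Psmd3, every CONV-WT library was lower (7.88% of all genes).

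The same responses were examined in libraries labelled Ern2-/-. In CONV-Ern2-/- against GF-Ern2-/-, DESeq2 called 0 of 43 members, where 4.33% of all genes were called, 1 had an unadjusted p under 0.05 by DESeq2 (19.6% of all genes), and edgeR called 0 (0.0325% of all genes). The median was 0.09, with 30 of 43 above 0 (49.2% of all genes) and 3 members without overlap (Psmd3, Psme2b and Psme3, 6.98% against 11.6% of all genes), and the smallest DESeq2 adjusted p was 0.199 (Psma4). In COLONIZED-Ern2-/- against GF-Ern2-/-, DESeq2 called 0 of 43, where 7.17% of all genes were called, 2 had an unadjusted p under 0.05 by DESeq2 (25.1% of all genes), and edgeR called 0 (0.216% of all genes). The median was 0.01, with 22 of 43 above 0 (48.3% of all genes), and 4 members did not overlap (Psmd3, Psmd12, Psme3 and Psmc3ip, 9.30% against 16.4%).

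These values depended on GF-Ern2-/- replicate 2. It was the highest of 18 libraries for 18 of the 31 core and cap genes, with a median log2 deviation of 0.32 from their mean. Of 10015 genes with a mean of 100 or more it was highest in 16.2%, the largest such share of any library. It was also the library with the lowest Ern2 count (386) and the highest epithelial marker sum (604686, against 207481 and 223527 in the other 2 GF-Ern2-/- libraries). Of that sum, most was Car1, a carbonic anhydrase of surface colonocytes, at 374772 against 15937 and 40171 in those 2. The epithelial sum was also 435007 in CONV-WT replicate 3 and 492287 to 592404 in CONV-Ern2-/-, and its part in the proteasome counts was not tested. Without GF-Ern2-/- replicate 2, the medians became 0.27 in CONV and 0.23 in COLONIZED. DESeq2 then called 2 members in COLONIZED-Ern2-/-, where it called 10.4% of all genes, Psmd14 (log2 fold change 0.57, Padj = 0.000695) and Psme3 (0.59, Padj = 0.00639), and 0 in CONV-Ern2-/- (7.14% of all genes). Within libraries with the Y-linked pattern, which keep replicate 2, DESeq2 called 0 members in either comparison (4.04% of all genes in CONV and 2.77% in COLONIZED), with medians of -0.01 in CONV and -0.14 in COLONIZED.

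Whether the response differed between the genotype labels was tested directly by the genotype by microbes interaction. For CONV against GF, DESeq2 and edgeR called 0 of 43 members, where DESeq2 called 0.177% of all genes and edgeR 0%. An unadjusted p under 0.05 by DESeq2 was given to 1 member (8.72% of all genes). The median interaction was -0.28 and 3 of 43 values were above 0 (48.1% of all genes), with the smallest DESeq2 adjusted p at 0.526 (Psmb2). For COLONIZED against GF, both tools called 0 of 44, where DESeq2 called 0.0280% of all genes and edgeR 0%. There 3 members had an unadjusted p under 0.05 by DESeq2 (5.76% of all genes), and the median was -0.28 with 6 above 0 (49.9% of all genes). The smallest adjusted p was 0.844 (Psmb3). The 12 fits that each left out 1 library gave medians from -0.35 to -0.09 for CONV and from -0.37 to -0.09 for COLONIZED. The highest of each, -0.09, came without GF-Ern2-/- replicate 2. Over all 18 alternatives the medians ran from -0.53 to -0.09 for CONV and from -0.59 to -0.09 for COLONIZED. Without the libraries labelled Ern2-/- whose Ern2 count was in the WT range, which leaves GF-Ern2-/- replicate 2 as the lone GF library of its label, DESeq2 called Psmd13 and Psmd14 lower in the CONV interaction (1.37% of all genes) and Psmb1 and Psmb6 lower in the COLONIZED interaction (3.41% of all genes). Neither interaction passed for any member with all libraries of its groups, and both interactions rest on the same GF libraries, GF-Ern2-/- replicate 2 included.

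Genotype labels were compared within each microbial state. In GF, DESeq2 called 0 of 43 members, where 0.0349% of all genes were called, and 0 had an unadjusted p under 0.05 by DESeq2 (1.48% of all genes) or edgeR. All 43 values were above 0 in GF-Ern2-/- (52.8% of all genes), with a median of 0.26, and 6 members did not overlap (14.0% against 2.88%). Without GF-Ern2-/- replicate 2 the median was 0.05, and within libraries that lack the Y-linked pattern, where GF-Ern2-/- replicate 3 stands alone, it was 0.06, with 26 of 43 above 0. In COLONIZED, DESeq2 called 0, where 1.37% of all genes were called, edgeR called 0 (0.00786% of all genes), and 5 members had an unadjusted p under 0.05 by DESeq2 (22.3% of all genes). The median was -0.03, with 17 of 43 above 0 (49.6% of all genes). Groups did not overlap in 10 members that were higher in COLONIZED-Ern2-/- (23.3%, against 16.4% of all genes) and in 6 that were lower (against 14.0% of all genes), and the smallest adjusted p was 0.0835 (Psmc6, an ATPase, DESeq2). In CONV, DESeq2 called 0, where 3.03% of all genes were called, and edgeR called 0, as it did among all 12128 genes that it tested. By either tool 0 members had an unadjusted p under 0.05 (17.3% of all genes by DESeq2). The median was -0.04, with 14 of 43 above 0 (52.1% of all genes) and 5 lower without overlap (11.6% of all genes).

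In CONV-Ern2-/- against COLONIZED-Ern2-/-, DESeq2 called 1 of 43 members, where 8.59% of all genes were called, and edgeR called 0 (0.282% of all genes). An unadjusted p under 0.05 by DESeq2 was given to 7 members, 6 of them higher, and to 30.2% of all genes. The call was Psmd4, a ubiquitin receptor of the cap, whose upstream sequence is shown above. Its counts were 1669.7, 1598 and 1859.5 (COLONIZED-Ern2-/-) and 2219, 2606 and 2979.9 (CONV-Ern2-/-), without overlap, and the log2 fold change was 0.61 (SE 0.18, DESeq2 Padj = 0.00787). In GF-Ern2-/- the Psmd4 counts were 1561.5, 2383 and 1731, a range that overlapped both. WT counts were 1470.4, 1774 and 1511 (GF), 1987, 1853 and 1852 (COLONIZED), and 1750.2, 1845 and 2642 (CONV). The highest counts in either CONV group were those of the shallow libraries, and Psmd4 was called in 3 of 15 alternative fits, which were TMM scaling, a minimum of 10 counts in 3 libraries and the fit without CONV-Ern2-/- replicate 1. In 5 others Psmb8 was called instead, lower. The fit within libraries with the Y-linked pattern is the same as that without COLONIZED-Ern2-/- replicate 3, counted under both names. Without CONV-Ern2-/- replicate 1, the deepest of its group, 7 members were called (Psma4, Psmb3, Psmb10, Psmc1, Psmd4, Psmd7 and Psme1), where 18.4% of all genes were called. In CONV-WT replicate 3 and CONV-Ern2-/- replicates 2 and 3 the fibroblast transcript Col3a1 reached 36.5, 42.2 and 49.7 normalized counts, against at most 8.35 in the other 15 libraries, while their sums of 11 mesenchymal markers were 484, 415 and 533, within the range of the other libraries (233 to 607), and the part of such cells was not tested.

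Of the inducible catalytic subunits, Psmb8 and Psmb9 varied more than any constitutive one, and Psmb10 lay within their range but above their median. Over 18 libraries the SD of log2 counts was 0.73 for Psmb8 and 0.48 for Psmb9, against 0.356 at most in the core and cap, and 0.29 for Psmb10. Over 18 libraries the correlations of the 3 inducible genes with single core and cap genes ran from -0.29 to 0.75 with a median of 0.03, and Psmb10 followed the sum of the core and cap (r = 0.59) whereas Psmb9 did not (r = -0.05). Psmb8 and Psmb9 lie in the MHC region of chromosome 17 at chr17:34198195-34201454 (plus strand) and chr17:34182030-34187330 (minus strand), on either side of Tap1, the peptide transporter gene.

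Psmb8, which replaces Psmb5, was counted at 360.3, 275 and 188 (GF-WT), 289, 904 and 278 (COLONIZED-WT), and 128, 243 and 343 (CONV-WT). With the Ern2-/- label the counts were 665, 189 and 194 (GF), 686, 436 and 299.9 (COLONIZED), and 242, 249 and 199 (CONV). Single libraries of 3 groups stood high, namely COLONIZED-WT replicate 2, GF-Ern2-/- replicate 1 and COLONIZED-Ern2-/- replicate 1, and the range over 18 libraries was 7.05-fold. Psmb5, the constitutive counterpart with chymotrypsin-like activity, was counted at 428, 450.4 and 342 (GF-WT), 471, 579.5 and 582 (COLONIZED-WT), and 531, 531 and 549.7 (CONV-WT). Its counts labelled Ern2-/- were 434, 714 and 391 (GF), 522, 384 and 519.5 (COLONIZED), and 478, 473 and 552 (CONV). The libraries highest for Psmb8 had Psmb5 counts of 579.5, 434 and 522, within the range of the other libraries.

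Psmb9, which replaces Psmb6, was counted at 283, 215 and 145 (GF-WT), 218, 457 and 213 (COLONIZED-WT), and 152, 207 and 230.1 (CONV-WT). Its counts labelled Ern2-/- were 503, 213 and 231 (GF), 392, 274 and 217 (COLONIZED), and 187, 238 and 215 (CONV). The same 3 libraries stood high as for Psmb8. Psmb6, the constitutive caspase-like subunit, was counted at 1349.8, 1615 and 1285 (GF-WT), 1807, 1893 and 1919 (COLONIZED-WT), and 1971, 2175 and 2043 (CONV-WT), without overlap of GF-WT with either group. Its log2 fold changes, 0.41 (DESeq2 Padj = 0.0125) in COLONIZED-WT and 0.53 (Padj = 0.0101) in CONV-WT, lay just short of the threshold. Psmb6 counts under the Ern2-/- label were 1545, 2415 and 1582 (GF), 1762, 1393 and 1625 (COLONIZED), and 1737, 1964 and 2218 (CONV).

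Psmb10, which replaces Psmb7, was counted at 1652, 1949 and 1316 (GF-WT), 1722, 2345 and 1576 (COLONIZED-WT), and 1445, 1735 and 2445 (CONV-WT). With the Ern2-/- label the counts were 1984, 2158 and 1812 (GF), 1831, 1509 and 1573 (COLONIZED), and 1779, 2357 and 2723 (CONV). No group of Psmb10 counts stood clear of GF. Psmb7, the constitutive trypsin-like subunit, was counted at 1298, 1383 and 1167 (GF-WT), 1472, 1636 and 1681 (COLONIZED-WT), and 1630.5, 1654 and 1888 (CONV-WT). Its counts labelled Ern2-/- were 1541, 2125 and 1360.2 (GF), 1584, 1496 and 1564 (COLONIZED), and 1539, 1624 and 1890.1 (CONV).

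None of the 3 inducible genes was called in any of the 9 comparisons by DESeq2 at Padj under 0.01. Psmb8 had its smallest adjusted p in CONV-Ern2-/- against COLONIZED-Ern2-/-, with a log2 fold change of -1.04 (SE 0.31, DESeq2 Padj = 0.0107), without overlap, and it was called in 5 of 15 alternative fits of that comparison. In COLONIZED-Ern2-/- against GF-Ern2-/- its log2 fold change was 0.44. Among 15 alternative fits (0.07 to 1.30) it was called, higher, in the 1 without GF-Ern2-/- replicate 1 (5.62% of all genes). Across all 18 libraries Psmb8 was related to Psmb9 with Pearson's r = 0.92 (permutation p = 1e-05, the smallest that 100000 permutations can give) and Spearman's rho = 0.83 (permutation p = 4e-05). Without the 2 libraries farthest from the median of Psmb8, COLONIZED-WT replicate 2 and COLONIZED-Ern2-/- replicate 1, r was 0.86, and after centring on group means it was 0.96. Of the 5 relations computed for Psmb8, that with Tap1 gave r = 0.70 (permutation p = 0.0016, adjusted 0.00397) and rho = 0.60 (adjusted 0.0279), and r = 0.62 without the 2 libraries, and that with Psmb9 had an adjusted p of 5e-05. With Psmb10 the values were r = 0.22 (permutation p = 0.37), 0.09 without the 2 libraries and 0.56 after centring on group means. With the immune marker sum they were r = -0.35 (permutation p = 0.16, adjusted 0.259), rho = -0.47 (permutation p = 0.0503, adjusted 0.0839) and r = -0.55 without the 2 libraries. The last relation gave r = -0.12 with the 31-gene sum (permutation p = 0.63). Exons of Psmb9 and Tap1, all annotated transcripts included, overlap by 212 bases on opposite strands, so their reads may be mixed in part.

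Of 8 listed regulators and partners of the inducible subunits (Irf1, Irf8, Nlrc5, Tap1, Tap2, Tapbp, Erap1 and B2m), GF-Ern2-/- replicate 1 had the highest count of the 18 libraries in 4 (Nlrc5, Tap1, Tap2 and B2m), where it was highest in 6.06% of 10015 genes with a mean of 100 or more. COLONIZED-WT replicate 2 was highest in 0 and next to highest in 3 (Tap1, Tap2 and B2m), and COLONIZED-Ern2-/- replicate 1 was neither in any. Over the 10015 genes, COLONIZED-WT replicate 2 was highest or next in 2.01% and COLONIZED-Ern2-/- replicate 1 in 5.49%. In GF-Ern2-/- replicate 1 the counts were 1561 for Tap1, a subunit of the peptide transporter for MHC class I, and 157 for Nlrc5, the transactivator of MHC class I genes. Nlrc5 counts were 69.1 in GF-WT replicate 1, 54.4 in COLONIZED-WT replicate 2, and 55.5 and 54.9 in COLONIZED-Ern2-/- replicates 1 and 2, and at most 20.1 in the other 13 libraries.

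**Figure D4:**
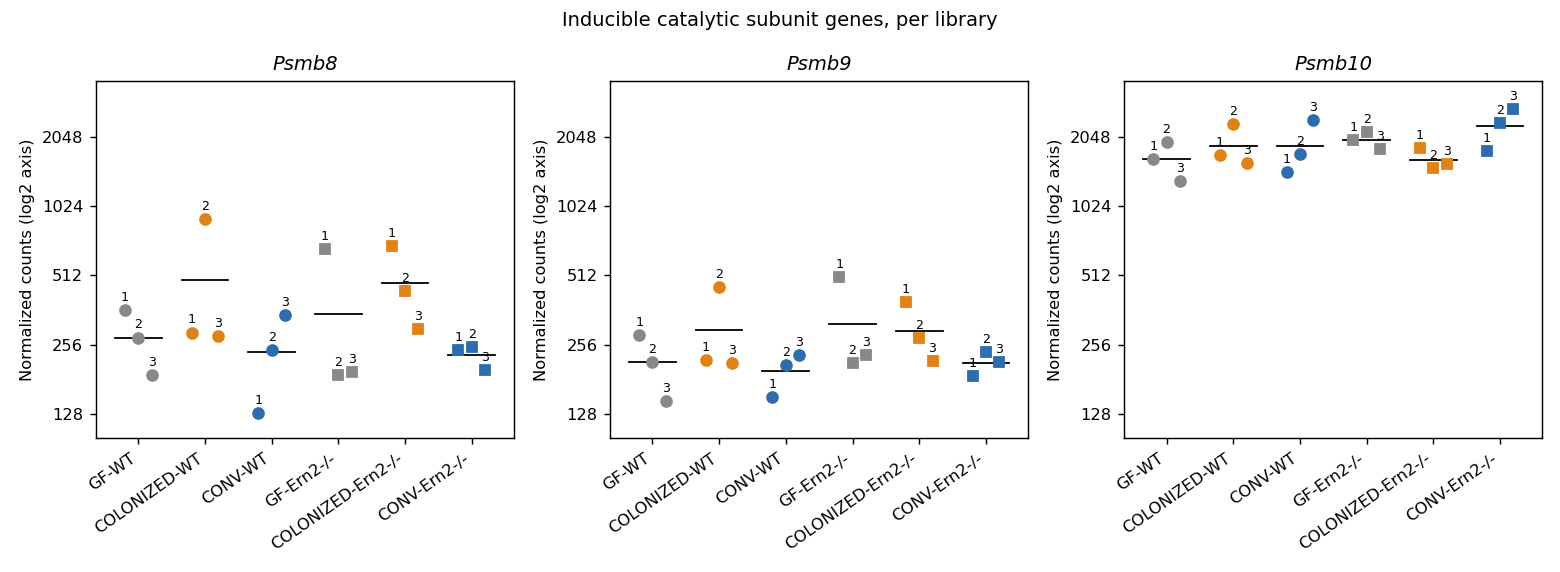
Normalized counts (y axis, log2 scale) of Psmb8, Psmb9 and Psmb10 in each library, by group (x axis), with numbered points for replicates and lines for the group means. Psmb8 runs from 128 to 904 and Psmb9 from 145 to 503, with COLONIZED-WT replicate 2, GF-Ern2-/- replicate 1 and COLONIZED-Ern2-/- replicate 1 high in both.

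The PA28 genes Psme1 and Psme2, whose products form the interferon-induced activator ring, were abundant and did not pass the test in any comparison. Psme1 counts were 1965, 2226 and 1883 (GF-WT), 2243, 2742 and 2028 (COLONIZED-WT), and 1865, 2424 and 3751 (CONV-WT). With the Ern2-/- label they were 2497, 2448 and 2167 (GF), 2246, 2135 and 2067 (COLONIZED), and 2184, 3293 and 3479 (CONV). The 3 shallow libraries were the highest for Psme1, and the groups overlapped. Psme2 counts were 1504, 1936 and 1645 (GF-WT), 1899, 2508 and 2268 (COLONIZED-WT), and 1722, 2017 and 2666 (CONV-WT), with log2 fold changes of 0.40 (DESeq2 Padj = 0.048) in COLONIZED-WT and 0.32 (Padj = 0.382) in CONV-WT. Psme2 was counted in libraries labelled Ern2-/- at 1861, 2696 and 1612 (GF), 2272, 1895 and 2170.5 (COLONIZED), and 2457, 2668 and 2801 (CONV).

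Other genes of the ubiquitin-proteasome pathway were taken from a written list, of which 38 symbols in the table are reported. In CONV-WT against GF-WT, DESeq2 called 6 of 38 (15.8%, against 11.0% of all genes), 3 higher and 3 lower, with a median of 0.05. There edgeR called 0, against 0.175% of all genes (smallest edgeR Padj = 0.0491). The ubiquitin shuttle Rad23b (log2 fold change 0.55, Padj = 0.000333), the ubiquitin fusion gene Rps27a (0.60, Padj = 0.00622) and the core assembly chaperone Psmg4 (1.03, Padj = 0.00736) rose. B2m (-0.95, Padj = 0.00167) and Tap2 (-1.46, Padj = 0.00408), partners in MHC class I display, and Nfe2l1 (-0.63, Padj = 0.00251) fell by DESeq2. Nfe2l1 encodes NRF1, the transcription factor that raises subunit genes when the proteasome is impaired, and its counts were 4890.4, 4778 and 4743 (GF-WT) and 3444, 3302 and 2620.5 (CONV-WT).

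In COLONIZED-WT against GF-WT, DESeq2 called 9 of the 38 pathway genes (23.7%, against 18.3% of all genes), 6 higher and 3 lower, with a median of 0.03. Here edgeR called 0, against 4.94% of all genes (smallest edgeR Padj = 0.0111). AI314180, an older symbol of the proteasome adaptor Ecpas (-0.55, Padj = 4.91e-05), and Ngly1, the deglycosylase that acts on NRF1 (-0.71, Padj = 0.000149), fell by DESeq2, as did the ligase gene Ube3c. Irf8 (0.51, Padj = 0.000424), an interferon regulatory factor, Psmg4 (0.94, Padj = 0.000841) and Vcp (0.40, Padj = 0.00124), the segregase that extracts ubiquitinated proteins from the ER, rose by DESeq2, as did Shfm1, a small cap subunit, Pomp, the core maturation factor, and Rps27a. DESeq2 and edgeR called 0 of the 38 in the other 7 pairwise comparisons and in both interactions. There DESeq2 called 0.0280% to 8.59% of all genes and edgeR 0% to 0.282%. An unadjusted p under 0.05 by DESeq2 was given to 0 to 13 of the 38. The 13 were in COLONIZED-Ern2-/- against COLONIZED-WT and the 0 in GF-Ern2-/- against GF-WT, whose shares over all genes are given above.

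The members lie on 16 chromosomes, and 13 of them share exon sequence with a neighbouring annotated gene. Among the genes described above these are Psma4 (114 bases with AY074887), Psmb5 (109 with Mir686), Psmb7 (405 with Nek6), Psmb8 (186 with Gm20496), Psmb9, Psmd3 (17 with Gm12356), Psmd13 (342 with Sirt3), Psme1 (13 with Emc9), Psme2b (41 with 9930111J21Rik1) and Psmc3ip (385 with Mlx). Psme2b is a near copy of Psme2, and reads may be split between them. Counts of these genes are uncertain to that extent.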

How the data were processed

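RNA-Seq was performed on colon crypts released with EDTA and retained on a strainer. The authors prepared stranded mRNA libraries, sequenced 75-cycle single-end reads and processed them with VIPER. The submitters' processing notes name STAR, DESeq2 and mm10, without versions, and the strand setting was not given in the sources used here. The authors deposited raw counts per gene symbol, which were used as deposited. Totals ran from 5865619 to 23154481 counts per library.

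DESeq2 1.42.0 (R 4.3.3, Wald test, default filters) was run over all genes, once for each of 9 comparisons on the 6 libraries concerned and once for each of 2 interactions on 12. Genes were called where the p adjusted after Benjamini and Hochberg was below 0.01. The test followed the study's methods. edgeR 4.0.16, other scalings, filters, covariates and left-out libraries were alternatives. Normalized counts are divided by DESeq2 size factors over 18 libraries. The fits were tested on simulated data. The members, lists and tests were chosen with earlier results of these data known, and 3 pathway genes and 1 marker of those lists are not reported here. Chosen for description were the inducible genes, their counterparts, Psme1, Psme2, and per comparison the 6 called members and 5 called pathway genes of smallest adjusted p. Other called genes were listed by name, and Psmd9 was described with its upstream sequence. Psme3, GF-Ern2-/- replicate 2, Col3a1 and Car1 were added after their values were seen. The replicates are labelled as separate samples of a group, but no source gives each library's cage, litter or processing day. Drawing used matplotlib 3.10.9.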

Additional observations from a re-analysis of the deposited data

How the results depend on the processing

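The median log2 fold change of the members stayed above 0 in all 14 alternatives for each of CONV-WT against GF-WT (0.33 to 0.40) and COLONIZED-WT against GF-WT (0.23 to 0.34). It changed sign in 4 of 15 for CONV-Ern2-/- against GF-Ern2-/- (-0.13 to 0.27) and in 5 of 15 for COLONIZED-Ern2-/- against GF-Ern2-/- (-0.27 to 0.23). Some alternatives are the same fit under different names, and tallies of alternatives count them more than once. Where a choice by Y-linked pattern or by Ern2 count drops a single library, it repeats the fit that leaves out that library. TMM scaling and a minimum of 10 counts in 3 libraries kept every count of called members within 1.5 times. In CONV-WT against GF-WT the 6 calls became 10 in 1 fit of all 18 libraries, 2 with the Y-linked pattern as a covariate, 2 in libraries without it, and 0 with edgeR (14.0%, 6.64%, 6.77% and 0.175% of all genes). In COLONIZED-WT against GF-WT the 8 became 5, 1, 1 and 2 under the same settings (8.98%, 1.92%, 1.15% and 4.94% of all genes), and the 1 call with the covariate was Psmb8. In COLONIZED-Ern2-/- against GF-Ern2-/- the 0 became 1 with library totals as size factors (Psme3, 7.32% of all genes) and 2 in 1 fit of all libraries (Psmd3 and Psme3, 8.52%). In CONV-WT against COLONIZED-WT it became 1 with the Y-linked covariate (Psmb8, lower, 0.0850% of all genes). In CONV-Ern2-/- against COLONIZED-Ern2-/- the 1 call became 0 in 1 fit of all libraries, with edgeR, and without the libraries whose Ern2 count was in the WT range (3.32%, 0.282% and 3.29% of all genes). Leaving those out, which keeps GF-Ern2-/- replicate 2 as the lone GF library of its label and assumes that it varies like the others, gave 3 calls in GF-Ern2-/- against GF-WT (Psma3, Psmb1 and Psmd14, 4.53% of all genes), 2 in the CONV interaction (Psmd13 and Psmd14, lower, 1.37%) and 2 in the COLONIZED interaction (Psmb1 and Psmb6, lower, 3.41%). The cause was not tested. Without 1 library at a time the counts ran from 0 to 9 in CONV-WT against GF-WT (4.31% to 20.8% of all genes), 3 to 7 in COLONIZED-WT against GF-WT (9.22% to 20.2%), 0 to 2 in COLONIZED-Ern2-/- against GF-Ern2-/- (3.42% to 10.4%), 0 to 1 in CONV-WT against COLONIZED-WT (Psme4, without CONV-WT replicate 3, 1.59% of all genes) and 0 to 7 in CONV-Ern2-/- against COLONIZED-Ern2-/- (3.29% to 18.4%). Library totals turned the median of CONV-Ern2-/- against COLONIZED-Ern2-/- to -0.13, its 1 change of sign in 15. The median of COLONIZED-Ern2-/- against COLONIZED-WT changed sign in 3 of 15 (-0.07 to 0.01) and that of CONV-Ern2-/- against CONV-WT in 2 of 13 (-0.14 to 0.02).

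Whether the replicate numbers pair the libraries is not stated in the sources, and the correlations of same-numbered libraries do not settle it. In 0 of 9 comparisons did every same-numbered pair correlate above 0.1 (r from -0.32 to 0.63), and in 2 of 9 every library correlated best with its own number. With the replicate block the 6 calls in CONV-WT against GF-WT became 0 (9.40% of all genes), and no other count of called members moved by over 1.5 times, although the 1 call in CONV-Ern2-/- against COLONIZED-Ern2-/- became Psmb8 in place of Psmd4.

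With 3 libraries a group, the smallest fold change that DESeq2 called in a member was 1.31 (Psma4 in COLONIZED-WT), and the shallow CONV libraries limit the comparisons that use them.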
